A study of Mus musculus with 8 samples.

Results

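PDX1 peaks in unmarked chromatin are the sites of PDX1 occupancy that lay away from gene ends and carried none of the 3 chromatin features measured beside it. They were selected from the 34883 deposited PDX1 peaks by 2 conditions: the peak shared no bp with any H3K4me2, H3K27ac or H2A.Z interval, and its centre lay more than 1 kb from every end of a protein-coding gene. Of the 34883 peaks, 23866 met both, which is 68.4% (Wilson 95% interval 67.9 to 68.9). The sites were mapped by ChIP-seq, in which DNA bound to a protein is pulled down with an antibody and sequenced. The cells were Beta-TC6, a line from a mouse tumour of insulin-secreting beta cells that stands in for the normal cell. Cells were grown to confluence and fixed with DSG and formaldehyde. The 6 targets (PDX1, BMAL1, CLOCK, H3K4me2, H3K27ac and H2A.Z) came from this line, with 1 library per target and 2 input libraries. There were no replicates, so no test over samples was possible, and every interval below covers counting error over peaks only.

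PDX1 is a homeodomain transcription factor that is needed for pancreas development and later helps to keep the insulin gene and other beta-cell genes active. Homeodomain factors of its kind read short AT-rich DNA built around a TAAT core. H3K4me2 and H3K27ac are histone modifications found at promoters and enhancers, H3K27ac mostly at active ones, and H2A.Z is a histone variant placed at many of the same regions. A factor peak with none of these features is therefore a place where the factor was recovered outside chromatin that looks like a promoter or an enhancer in the same cells. Absence of an interval means only that no interval was called at the depth of that library. The PDX1 library held 19568242 tags, and the 3 feature libraries held between 13430083 (H3K27ac) and 26678241 tags (H3K4me2). The labelled cell type was checked at marker genes. H3K4me2 and H3K27ac lay at an end of 9 of the 10 beta-cell markers, the exception being Ucn3, and at 0 of the 4 acinar markers. Among the 6 markers of other islet cells, H3K4me2 lay at an end of 2, Gcg and Sst, and H3K27ac at Gcg alone.

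Sequence was read for 15 unmarked peaks whose centre lay in a 300-base window around an annotated gene start from RefSeq (build GRCm38.p6, with coordinates equal to those of mm10). Of these starts, 14 belong to non-coding genes. Windows of this kind show the DNA at these 15 peaks, not at unmarked peaks at large. Below are the parts of 5 peaks covered by such a window, chosen as those of non-coding genes with at least 150 bases covered and the highest PDX1 tag counts. Each is written 5′ to 3′ along the strand of the gene, and capitals mark TAATTA and TAATGA, searched on both strands; TAATTA is its own reverse complement, and neither motif contains the other.

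Gm34784 (chr4:98125848-98126063, plus strand): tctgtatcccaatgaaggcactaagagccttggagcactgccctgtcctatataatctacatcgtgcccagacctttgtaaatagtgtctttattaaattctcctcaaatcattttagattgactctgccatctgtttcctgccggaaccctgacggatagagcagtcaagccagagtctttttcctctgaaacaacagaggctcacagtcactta

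LOC108168760 (chr2:58383521-58383710, minus strand): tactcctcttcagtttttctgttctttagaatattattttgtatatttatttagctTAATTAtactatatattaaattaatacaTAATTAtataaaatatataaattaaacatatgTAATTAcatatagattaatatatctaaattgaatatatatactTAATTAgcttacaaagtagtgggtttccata

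Gm51546 (chr8:107356590-107356755, plus strand): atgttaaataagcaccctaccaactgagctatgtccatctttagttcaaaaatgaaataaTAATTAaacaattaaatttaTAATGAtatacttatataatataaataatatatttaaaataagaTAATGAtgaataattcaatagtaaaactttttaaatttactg

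Gm46648 (chr19:26823616-26823838, plus strand): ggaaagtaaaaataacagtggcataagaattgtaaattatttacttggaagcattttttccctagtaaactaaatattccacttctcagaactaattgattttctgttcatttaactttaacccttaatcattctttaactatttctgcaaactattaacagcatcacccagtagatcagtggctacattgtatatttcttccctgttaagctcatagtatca

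Gm52576 (chr2:47834164-47834398, minus strand): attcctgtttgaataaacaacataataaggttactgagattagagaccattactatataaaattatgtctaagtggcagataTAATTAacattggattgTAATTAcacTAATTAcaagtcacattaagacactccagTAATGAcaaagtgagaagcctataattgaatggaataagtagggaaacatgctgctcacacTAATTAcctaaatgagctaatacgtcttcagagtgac

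The peak at LOC108168760 had a normalized tag count of 23.0 (tags scaled to 10000000 per library) and its stretch held 4 TAATTA sites in 190 bases that were 16.8% G or C. At Gm52576, 4 TAATTA sites and 1 TAATGA site stood under a peak of 13.3 normalized tags that lay 228631 bp from the nearest feature interval. The stretch at Gm51546 held 1 TAATTA and 2 TAATGA sites under a peak of 14.3 normalized tags. The peak at Gm34784 had the highest normalized tag count of the 5, 37.3, its stretch held neither motif, and it lay only 7 bp from a feature interval. The stretch at Gm46648, with 13.3 normalized tags, held neither motif. Both this stretch and that at Gm34784 contain other TAAT words. The 5 stretches ranged from 16.8% to 44.0% in GC content, and 3 of them held the searched core.

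Over the whole 300-base windows, 10 of the 15 with an unmarked PDX1 centre held TAATTA or TAATGA (66.7%, Wilson 95% interval 41.7 to 84.8). The share was 52.4% in the 147 windows with another PDX1 peak centre (44.4 to 60.3) and 13.7% in the 32687 windows with no PDX1 centre (13.4 to 14.1). Over all 32849 windows, 13.9% held either motif, 5.29% held TAATTA and 9.78% held TAATGA. Taken by itself, the motif TAATTA was in 8 of the 15 unmarked windows (53.3%, 30.1 to 75.2), in 34.7% of the windows of other PDX1 peaks (27.5 to 42.7) and in 5.13% of those without PDX1. The motif TAATGA was in 4 of the 15 (26.7%, 10.9 to 52.0), in 31.3% (24.4 to 39.2) and in 9.67%. The intervals of the unmarked and of the other PDX1 windows overlap in each of these counts, and all lie above the share in windows without PDX1. Base composition moved with these groups: median GC content was 37.3% in the unmarked windows, 48.3% in those of other PDX1 peaks and 53.0% in those without PDX1, and its part in the motif shares was not tested. Among windows of genes that are not protein-coding, the 14 unmarked, 54 other and 11519 PDX1-free windows held either motif in 64.3%, 59.3% and 17.5% of cases. TAATTA alone was in 57.1% of these 14 (32.6 to 78.6), above the 6.49% of the PDX1-free windows. TAATGA alone was in 3 of the 14 (21.4%, 7.57 to 47.6), an interval that includes the 12.3% of the PDX1-free windows. CANNTG, the E-box core that BMAL1 and CLOCK can read, was common everywhere, in 14 of the 15 unmarked windows and in 72.3% of all windows. These 15 windows are a small and selected subset, since they lie at annotated starts.

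MicroRNA genes gave another view of the sequence under the peaks, because the hairpins of Mir759 and Mir496b lay whole inside an unmarked peak. The hairpin of Mir496b is shown with its match to the searched core in capitals, and that of Mir759 held none.

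Mir759 (chr14:79738431-79738528, plus strand): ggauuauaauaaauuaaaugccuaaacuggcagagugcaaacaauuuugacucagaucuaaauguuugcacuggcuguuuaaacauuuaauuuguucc

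Mir496b (chr19:16314892-16315004, minus strand): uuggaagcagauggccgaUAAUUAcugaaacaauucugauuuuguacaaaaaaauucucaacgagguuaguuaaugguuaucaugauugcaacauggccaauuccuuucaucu

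The peak over Mir759 had 30.2 normalized tags, 28265 bp from Pcdh8, a protocadherin gene, and 31125 bp from the nearest feature interval. The input held 5 tags there. Its focus ratio, a measure of sharpness described below, was 0.707, under the lower quartile of unmarked peaks (0.737). The peak over Mir496b had 10.2 normalized tags and lay inside Gnaq, which encodes a G protein alpha subunit. Peaks of 8.18 normalized tags shared part of the hairpins of Mir24-2 and Mir3074-2, which overlap on opposite strands, and of Mir146b.

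Unmarked peaks were on the whole weak. Their normalized tag count had a median of 8.69 (quartiles 7.15 and 11.8), against 13.3 (9.20 and 19.9) in the 4880 distal active peaks, which carried H3K4me2 and H3K27ac. The 2962 distal peaks with H3K4me2 without H3K27ac had a median of 10.7, the 2433 distal peaks with another feature (H3K27ac without H3K4me2, or H2A.Z alone) 12.3, and the 742 peaks at gene ends 9.20. PDX1 tags, together with the interval lists, chose these classes, so the values are a description. Among the 11526 PDX1 peaks under 8 normalized tags, 9537 were unmarked (82.7%). The unmarked share then fell with each class of tag count, to 5872 of 7921 peaks at 8 to under 10 (74.1%), 5175 of 8315 at 10 to under 15 (62.2%), 2675 of 5609 at 15 to under 30 (47.7%) and 607 of 1512 at 30 or more (40.1%, 37.7 to 42.6). The share was higher at the very top of the list, where 14 of the 20 highest PDX1 peaks were unmarked, 28 of the 50 highest and 58 of the 100 highest. Among the 500 and the 1000 highest it was 43.6% and 40.9%, near the 40.1% of the strongest class.

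The focus ratio separated the unmarked peaks further. HOMER, the peak caller, gives this ratio as the fraction of tags that lie where a single binding point would put them, upstream of the centre on each strand, so a high value is a sharp, point-like peak. The unmarked share rose from 54.3% of the 6498 peaks with a ratio under 0.7 to 61.8% at 0.7 to under 0.8, 75.7% at 0.8 to under 0.9 and 90.8% of the 3643 peaks at 0.9 or more (89.8 to 91.7). The median ratio was 0.806 (quartiles 0.737 and 0.867) in unmarked peaks and 0.745 (0.685 and 0.8) in distal active peaks. A ratio of 0.9 or more was found in 3308 unmarked peaks (13.9%) and in 92 distal active peaks (1.89%), a difference of 12.0 percentage points (Newcombe 95% interval 11.4 to 12.5).

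**Figure D1:**
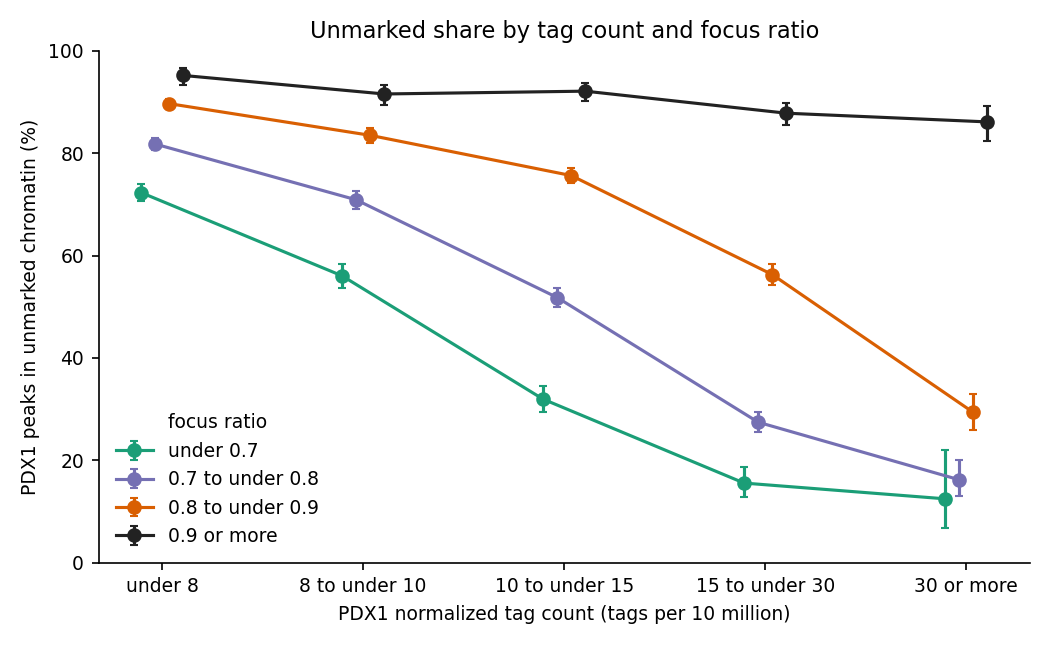
Share of PDX1 peaks in unmarked chromatin (%, points with Wilson 95% intervals) by class of PDX1 normalized tag count (x axis, tags per 10000000), with a line for each class of focus ratio. At a ratio of 0.9 or more the share stays between 86.1% and 95.2%, while under 0.7 it goes from 72.3% to 12.5%.

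Tag count and focus ratio jointly gave a wider range than either alone. Among peaks of 30 or more normalized tags, 9 of 72 with a ratio under 0.7 were unmarked (12.5%, 6.72 to 22.1), 66 of 407 at 0.7 to under 0.8 (16.2%), 185 of 630 at 0.8 to under 0.9 (29.4%) and 347 of 403 at 0.9 or more (86.1%, 82.4 to 89.1). In the same strong class the distal active share ran the opposite way, from 58.3% under 0.7 to 5.21% at 0.9 or more. Strong and sharp PDX1 peaks were thus mostly unmarked, and strong peaks with spread tags mostly marked. At 15 to under 30 normalized tags the unmarked share went from 15.6% under 0.7 to 87.8% at 0.9 or more. Under 8 normalized tags the gap was narrower, 72.3% against 95.2%. Sharpness therefore went with an unmarked site at every tag count, and the share changed least with tag count among the sharpest peaks.

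The same held when peaks of like tag count were set side by side. Under 8 normalized tags, the median focus ratio was 0.773 in unmarked and 0.706 in distal active peaks. At 15 to under 30 it was 0.863 and 0.764, and at 30 or more 0.912 and 0.798. In the strongest class, a ratio of 0.9 or more was found in 57.2% of unmarked peaks (53.2 to 61.0), 4.37% of distal active peaks (2.87 to 6.58) and 7.55% of those with H3K4me2 without H3K27ac. Within unmarked peaks, the ratio rose with tag count (Spearman rho 0.33 over 23866 peaks), as it did within distal active peaks (0.32 over 4880). These are descriptions over peaks of 1 library, and both measures come from the same tags.

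**Figure D2:**
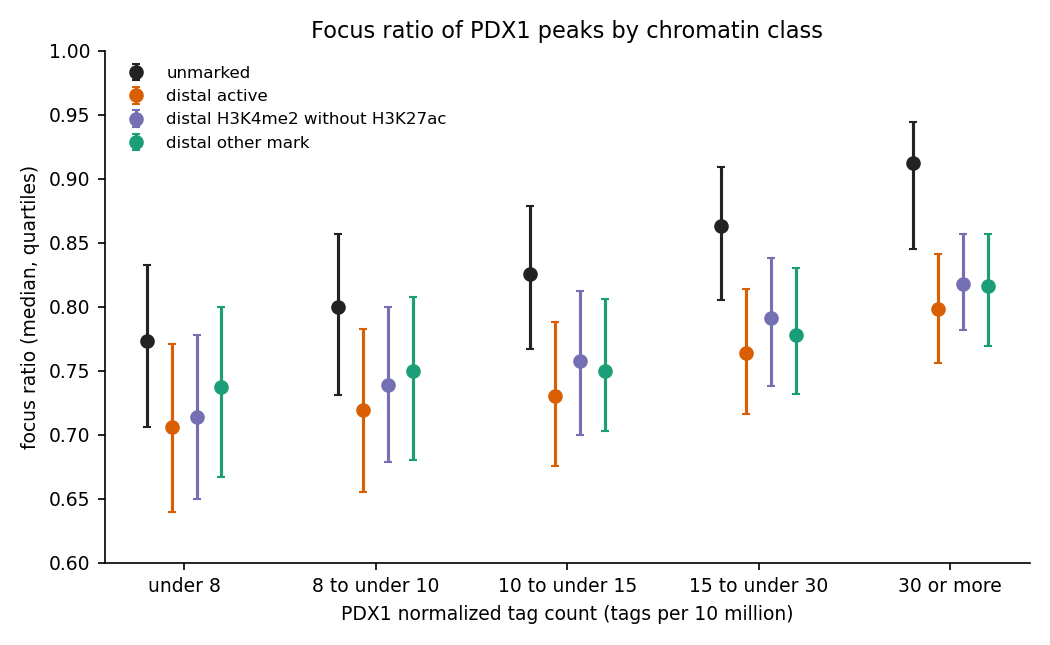
Focus ratio of PDX1 peaks (points are medians, bars span the quartiles) by class of PDX1 normalized tag count, for unmarked peaks and 3 classes of marked distal peaks. Unmarked peaks have the highest median in every class, from 0.773 under 8 normalized tags to 0.912 at 30 or more.

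Contrast with the local surroundings moved with sharpness. Fold over the local 10 kb is the ratio of tags in the peak to those around it. It rose with the focus ratio within unmarked peaks (Spearman rho 0.43) and within distal active peaks (0.41). Its median was 31.3 in unmarked and 18 in distal active peaks of 30 or more normalized tags, and 6.14 and 5.52 in those under 8. Over all tag counts the order was reversed, with medians of 7.73 in unmarked and 8.22 in distal active peaks. Fold over input had medians of 34.6 and 22.4 in the strongest class. Input tags differed as well: the median was 1 in unmarked and 2 in distal active peaks, and 33.1% of unmarked against 16.5% of distal active peaks sat at the lowest listed input value of 0.5. Peaks with H3K4me2 without H3K27ac also had a median of 1, and 26.1% of them sat at 0.5. The interval of their difference from unmarked peaks lay above 0 under 8 normalized tags and at 30 or more. In each class between, it included 0. The part of input in the focus ratio and the tag counts was not tested.

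The 15 unmarked peaks with the highest tag counts ranged from 112.9 to 386.9 normalized tags with a median of 145.1, and their focus ratio from 0.693 to 0.979. The highest of all PDX1 peaks, chr5:146567563-146567797, had 386.9 normalized tags at a ratio of 0.749 and lay 8.77 kb from the predicted gene Gm3415. The next, chr10:71178482-71178716, had 269.3 at 0.919 and lay 18.9 kb from Bicc1, which encodes an RNA-binding protein. Their scores, 761 and 527 tags, exceed the 470 strand positions of a peak of this fixed width, so some positions held more than 1 tag; no other PDX1 peak had a score above 470. The top 15 were not uniform in shape: 9 had a ratio of 0.9 or more and 3 were under 0.8.

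All 3 of the blunt peaks lay on chromosome 5, which held 5 of the 15. Besides the peak near Gm3415 they were chr5:138571437-138571671 near 1700123K08Rik, with 198.8 normalized tags at 0.775, and chr5:146147546-146147780 near Gm5565, with 191.6 at 0.693. A further peak near 1700123K08Rik, chr5:138552404-138552638, had 165.1 normalized tags at 0.865. Whether reads at these predicted genes also match other copies in the genome was not tested. The input was low at all 4, at 0.5 or 1 tag.

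The sharp peaks among the 15 were spread over many chromosomes. The peak chr5:60604183-60604417 had the highest ratio, 0.979, with 133.4 normalized tags, and lay 1205 kb from the nearest protein-coding gene end, that of G6pd2, a retrogene copy of glucose-6-phosphate dehydrogenase. The same peak was only 1664 bp from an H3K27ac interval and had another PDX1 peak within 10 kb. The peak chr17:69632216-69632450 near Akain1 had 148.2 at 0.971, and chr12:14383508-14383742 near Lratd1 had 112.9 at 0.960. The peak chr8:43017765-43017999 near Triml1 had 130.8 at 0.952, and chr10:104616609-104616843 had 188.6 at 0.95 with the largest fold over the local 10 kb, 414. That last peak was 420.2 kb from a protein-coding gene end. The peaks near Adamts1, a secreted metalloprotease gene (chr16:85824351-85824585), and Marchf1, a ubiquitin ligase gene (chr8:65394130-65394364), had 128.3 and 145.1 normalized tags at 0.944 and 0.929. Only the peaks in Setbp1 (123.2) and in Msra, a methionine sulfoxide reductase gene (117.5, chr14:64302122-64302356), were inside a protein-coding gene. The remaining peak of the 15, chr15:41434675-41434909, lay 12.7 kb from Oxr1 and 633 bp from an H2A.Z interval, the shortest gap to a feature among them. Of the 15, 3 had another PDX1 peak within 10 kb, and 7 lay more than 100 kb from a gene end.

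Position was then set beside sharpness among strong unmarked peaks. The 347 with 30 or more normalized tags and a ratio of 0.9 or more had a median distance of 78.4 kb to a gene end and of 14.1 kb to a feature interval. The 75 unmarked peaks of the same strength with a ratio under 0.8 lay at 72.7 kb and 7.06 kb. A PDX1 neighbour within 10 kb was found at 22.5% and 25.3% of the 2 groups.

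Most unmarked peaks lay kilobases away from any marked region. The gap to the nearest feature interval had a median of 14.2 kb, with quartiles of 5.08 and 35.3 kb. Only 1235 of the 23866 (5.17%) lay within 500 bp of an interval and 3032 (12.7%) within 2 kb, whereas 1848 (7.74%) lay more than 100 kb away. The nearest interval was H3K4me2 for 10303 peaks, H2A.Z for 8779 and H3K27ac for 4784. With distance from features the peaks became sharper but not stronger. A focus ratio of 0.9 or more was found in 9.22% of the 1931 peaks within 1 kb of an interval and in 20.7% of the 1848 beyond 100 kb. Peaks of 30 or more normalized tags were 5.23% and 2.00% of the same groups. The median fold over the local 10 kb was 6.83 within 1 kb and 10.2 beyond 100 kb.

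At the limit of overlap, peaks on either side had like values. The 89 distal peaks just outside it, which overlapped a feature by 1 to 20 bp, had a median of 13.8 normalized tags and a focus ratio of 0.756, and the 86 just inside, with a gap of 1 to 20 bp, 12.3 and 0.777. The peak chr1:126391221-126391455 near Nckap5 overlapped an interval by 1 bp and was left out with 30.2 normalized tags, while chr12:70238591-70238825 near Trim9, with 12.3, touched one without overlap and was kept. At the gene-end limit, a peak 999 bp from Itga2, an integrin gene, was left out with 78.7 normalized tags (chr13:114831965-114832199).

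Unmarked peaks lay farther from the ends of protein-coding genes than distal active peaks did. The median distance to a protein-coding gene end was 101 kb (quartiles 27.4 and 321 kb), against 42.9 kb (14.4 and 119 kb) for distal active peaks, a difference of 58.3 kb. Distances under 1 kb were removed from both classes by the rule. When ends of all 49939 genes in the table were used, non-coding ones included, the difference was 13.1 kb. More than 100 kb from a gene end lay 11998 unmarked peaks (50.3%) and 1404 distal active peaks (28.8%), a difference of 21.5 percentage points (Newcombe 95% interval 20.1 to 22.9). The difference narrowed with tag count. It was 29.2 points under 8 normalized tags (25.6 to 32.3) and 9.70 at 30 or more (3.81 to 15.5). Of the distal peaks with H3K4me2 without H3K27ac, 38.5% lay that far, 11.8 points below the unmarked peaks (9.94 to 13.7). At 30 or more normalized tags that gap was 2.27 points (-6.44 to 10.7), an interval that leaves its sign open. More than 500 kb away were 3901 unmarked peaks (16.3%) and 143 distal active peaks (2.93%). Protein-coding gene spans contained 41.7% of unmarked and 54.1% of distal active peaks, a difference of -12.4 points (-13.9 to -10.9). Exons, introns and UTRs were not determined, since the gene table holds spans only.

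**Figure D3:**
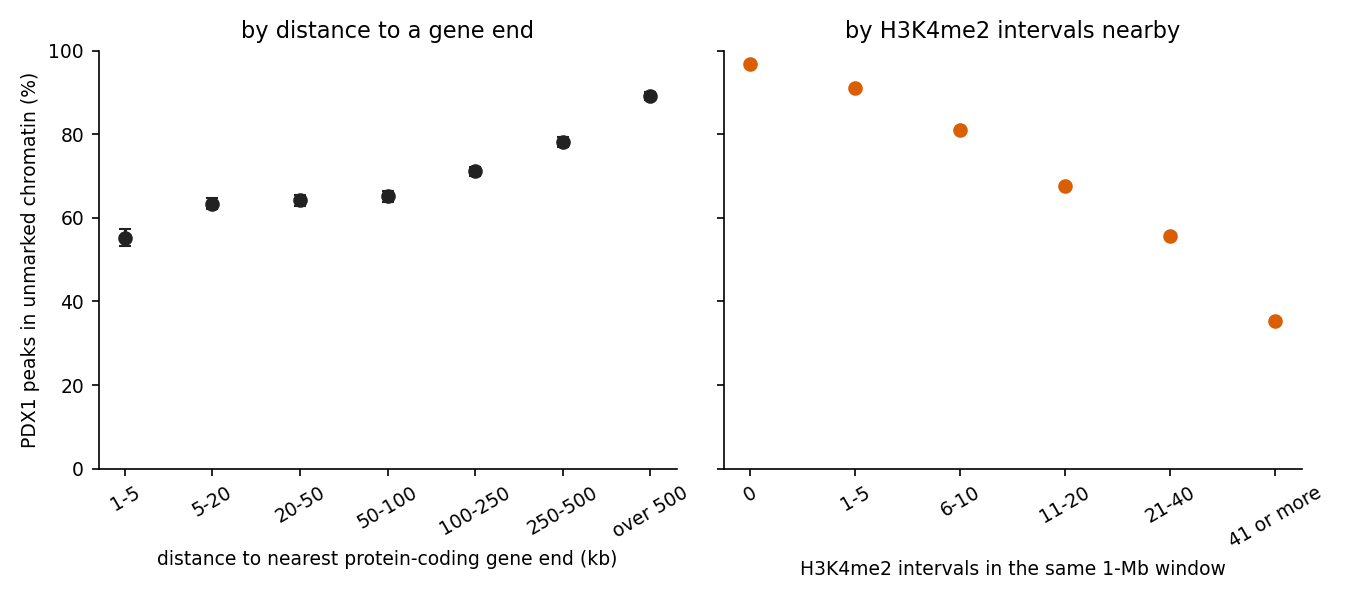
Share of PDX1 peaks in unmarked chromatin (%). Left, by distance in kb to the nearest protein-coding gene end, with Wilson 95% intervals, over distal PDX1 peaks; right, by the number of H3K4me2 intervals in the same 1-Mb window, over all PDX1 peaks. The share goes from 55.2% at 1 to 5 kb to 89.2% beyond 500 kb, and from 96.9% in windows with 0 H3K4me2 intervals to 35.3% in those with 41 or more, a fall that follows from the rule, since overlap with H3K4me2 bars a peak from the class.

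Read the other way, 55.2% of the 2359 distal PDX1 peaks 1 to 5 kb from a gene end were unmarked (53.2 to 57.2). The share was nearly level from 5 to 100 kb, at 63.4% to 65.2%, and reached 71.2% at 100 to 250 kb, 78.2% at 250 to 500 kb and 89.2% of the 4374 peaks beyond 500 kb (88.2 to 90.1). The strength of the unmarked peaks did not follow, with a median of 8.69 normalized tags in each of the 7 distance classes. In windows of 1 Mb, the unmarked share is tied to the density of H3K4me2 intervals by the rule, which uses those intervals, and is given only as a description. It went from 443 of 457 PDX1 peaks in the 92 windows with 0 H3K4me2 intervals to 281 of 795 in the 76 windows with 41 or more. The number of unmarked peaks per window was lowest at both ends, a mean of 4.82 and 3.70, and highest, 11.2, in windows with 6 to 10 H3K4me2 intervals. By chromosome the share ran from 55.7% (chromosome 9) to 76.4% (chromosome 14).

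Some gene-poor stretches were dense in unmarked peaks. The window chr14:107000001-108000000 held 47 of them among 48 PDX1 peaks, with 2 H3K4me2 intervals and no protein-coding gene, and none was above 23.0 normalized tags. The window chr14:110000001-111000000 around Slitrk6, a neuronal membrane protein gene, held 45 of 52. On chromosome 5, chr5:56000001-57000000 held 43 of 46 and contained no protein-coding gene. Within 10 kb steps most peaks were solitary: chains of unmarked peaks with each centre within 10 kb of the next left 17876 peaks alone, and the longest chains held 6. A chain of 6 lay inside Kcnt2, a potassium channel gene, at chr1:140534969-140554741, with 6.64 to 18.4 normalized tags and no feature interval within 41 kb.

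A PDX1 neighbour within 10 kb was recorded for 32.9% of all PDX1 peaks. The share was 31.6% of unmarked peaks (7531 of 23866) and 39.1% of distal active peaks (1906 of 4880), a difference of -7.50 points (Newcombe 95% interval -9.00 to -6.02). The difference grew with tag count. It was -0.746 points under 8 normalized tags (-4.52 to 2.79), an interval that includes 0, and -11.4 points at 30 or more (-16.9 to -5.83), where 26.0% of unmarked and 37.4% of distal active peaks had a neighbour. With the list reduced to peaks of 0 or 1 input tags it was -0.343 points (-2.21 to 1.43), but that setting also removed neighbours. When neighbours of the same peaks were counted in the whole list, it was -8.56 points (-10.7 to -6.41). Within the span of 50 kb the difference was -3.14 points (-4.27 to -1.97). Peaks with H3K4me2 without H3K27ac had a neighbour in 31.4% of cases, and their difference from unmarked peaks, 0.191 points (-1.60 to 1.94), includes 0.

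BMAL1 and CLOCK are partner transcription factors of the circadian clock that bind E-box DNA together, and their peaks were not used to choose the sites. Of all PDX1 peaks, 0.608% overlapped a BMAL1 peak and 0.765% a CLOCK peak. BMAL1 peaks overlapped 78 unmarked peaks (0.327%, 0.262 to 0.408) and 73 distal active peaks (1.5%, 1.19 to 1.88), a difference of -1.17 points (-1.56 to -0.854). For CLOCK the counts were 33 (0.138%, 0.0985 to 0.194) and 129 (2.64%, 2.23 to 3.13), a difference of -2.51 points (-3.00 to -2.09). Each clock factor was thus found at a smaller share of unmarked than of active sites.

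**Figure D4:**
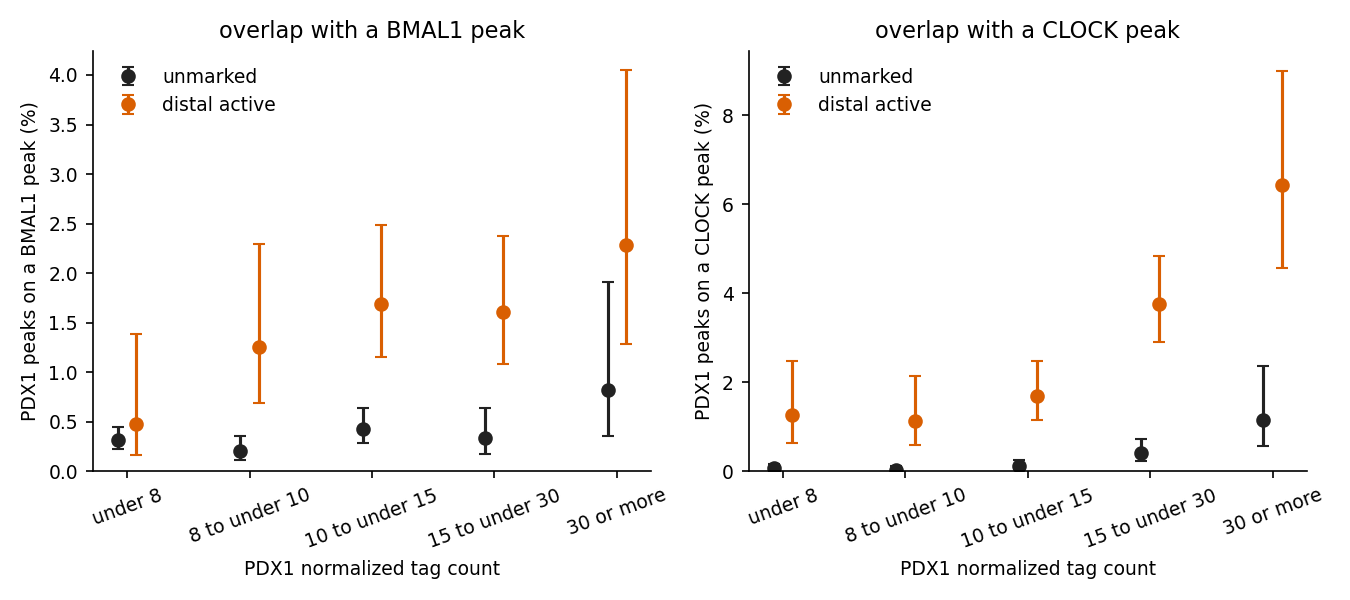
Share of PDX1 peaks that overlap a BMAL1 peak (left) or a CLOCK peak (right), in %, with Wilson 95% intervals, by class of PDX1 normalized tag count, for unmarked and distal active peaks. CLOCK overlap is lower in unmarked peaks in each of the 5 classes, and the BMAL1 intervals of the 2 groups overlap under 8 and at 30 or more.

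Strong PDX1 peaks overlapped CLOCK more often in both classes. The BMAL1 share of unmarked peaks showed no steady rise under 30 normalized tags, at 0.204% to 0.425%. At 30 or more it was 0.824% (5 of 607, 0.352 to 1.91). Peaks of like strength were then compared for both factors. For CLOCK the interval of the difference lay below 0 in all 5 classes of tag count, from -1.10 points at 8 to under 10 (-2.10 to -0.554) to -5.29 points at 30 or more (-7.92 to -3.07), where 7 of 607 unmarked and 31 of 481 distal active peaks overlapped. For BMAL1 it lay below 0 in the 3 middle classes. Under 8 normalized tags the BMAL1 difference was -0.161 points (-1.08 to 0.180), and at 30 or more -1.46 points (-3.29 to 0.0195). Against distal peaks with H3K4me2 without H3K27ac, over all tag counts, the differences were -0.551 points for BMAL1 (-0.961 to -0.261) and -0.740 for CLOCK (-1.15 to -0.456). Within classes of tag count the BMAL1 interval included 0 at 15 to under 30 (-1.25 to 0.204) and at 30 or more (-3.68 to 0.987). The CLOCK interval included 0 under 8, where 7 of 9537 unmarked and 0 of 690 such peaks overlapped (0.0734 points, -0.482 to 0.151). Depth differed between the 2 clock libraries, with 12892080 tags for BMAL1 and 17898856 for CLOCK, and their shares are not compared with each other.

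Only 1 of the 23866 unmarked peaks overlapped both clock factors (0.00419%), against 14 of the 4880 distal active ones (0.287%). It was chr3:145357089-145357323 inside Col24a1, a collagen gene, with 23.0 normalized PDX1 tags, and the BMAL1 and CLOCK peaks there had scores of 19 and 31 tags. The unmarked peaks with CLOCK alone and the highest PDX1 tag counts lay in Rit2, a neuronal GTPase gene (53.7 normalized tags), in Fbrsl1 (52.1, chr5:110392895-110393129), near 4930591A17Rik (49.1, chr2:179287031-179287265), near Ccdc112 (47.5) and in Dok5, a docking protein gene (44.5, chr2:170877855-170878089). The CLOCK scores at these 5 were 13 or 15 tags. By gap to a feature, CLOCK overlapped 6 of the 1931 unmarked peaks within 1 kb of an interval, 8 of 3963 at 1 to 5 kb, 13 of 8356 at 5 to 20 kb, 5 of 7768 at 20 to 100 kb and 1 of 1848 beyond. For BMAL1 the counts in the same order were 13, 8, 30, 25 and 2, with no steady trend.

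Genes were then taken from lists of known function, with a gene counted where its end was the nearest to the peak centre, within 50 kb. Of all 21883 protein-coding genes, 5186 had an unmarked PDX1 peak by this count, which is 23.7%, and 59.2% of the 14588 PDX1 peaks so assigned were unmarked. Genes differ in length and in the space around them, which changes how many peaks they can collect, and no correction was made for this. The shares per list below are descriptions.

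**Figure D5:**
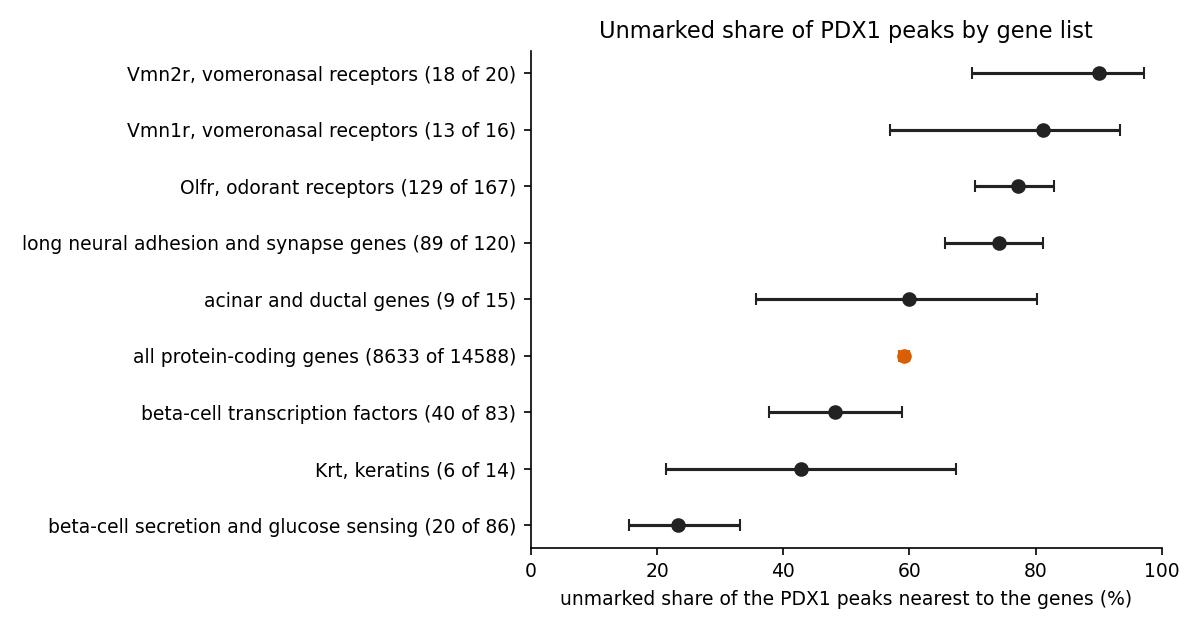
Unmarked share (%) of the PDX1 peaks nearest to the genes of each list and within 50 kb of their ends, for lists with more than 10 such peaks, with Wilson 95% intervals and the counts in brackets; the orange point is all protein-coding genes. Of the lists drawn, genes of insulin secretion and glucose sensing have the lowest share, 23.3%, and Vmn2r genes the highest, with 18 of 20.

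Transcription factors of the beta cell and its relatives often had unmarked PDX1 peaks beside marked ones. An unmarked peak was nearest to 22 of the 36 listed genes, and 40 of their 83 PDX1 peaks were unmarked (48.2%, 37.8 to 58.8). The strongest lay 37.7 kb from Nkx2-2, a homeodomain factor of endocrine progenitors and beta cells, at chr2:147233024-147233258, with 81.8 normalized tags and a focus ratio of 0.976. Neither of the 2 PDX1 peaks nearest to Nkx2-2 was marked. Hhex, a homeodomain factor of delta cells, had 2 unmarked peaks and no other: 56.2 inside the gene (0.823) at chr19:37437745-37437979, and 36.3 with a low ratio of 0.583 at chr19:37457873-37458107. Hhex had none of the 3 features at its ends.

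Other factors of the list divided in 2 ways. Onecut1, a factor of pancreatic progenitors, had 1 PDX1 peak, unmarked, at 22.5 normalized tags. Pdx1 itself had 4 PDX1 peaks, of which 2 were unmarked and 2 active, and its highest unmarked peak had 8.69 normalized tags against 36.3 for the highest of the 4. Neurod1, Pax6, Pax4, Foxa2 and Myt1 had PDX1 peaks but no unmarked one. Factors with a known place in other islet cells or in progenitors, such as Hhex and Onecut1, and core beta-cell factors, such as Pdx1 and Nkx6-1, were thus both found among the 22.

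Genes of insulin secretion and glucose sensing had the lowest unmarked share of the lists with more than 10 PDX1 peaks. Of 39 matched genes, 12 had an unmarked peak (30.8%), and 20 of their 86 PDX1 peaks were unmarked (23.3%, 15.6 to 33.2). The strongest of the 20 was 11.8 kb from Ins1, a rodent insulin gene, at chr19:52276715-52276949, with 41.4 normalized tags at a ratio of 0.875; 5 of the 7 PDX1 peaks nearest to Ins1 were unmarked. Slc2a2, the glucose transporter GLUT2, had an unmarked peak of 17.9 normalized tags that lay 7 bp from an H2A.Z interval, and that in Cpe, a carboxypeptidase of prohormone processing, had 17.4 and lay 119 bp from H3K27ac. The peak in Cacna1c, an L-type calcium channel gene, had 16.9 and lay 57.2 kb from a feature, and that in Slc30a8, the granule zinc transporter, had 14.3. Several genes of the list had strong PDX1 peaks of which none was unmarked: the highest had 97.1 normalized tags at Chga, which encodes the granule protein chromogranin A, 46.0 at Iapp, the amylin gene, and 41.4 at Abcc8, the sulfonylurea receptor gene. The listed Tmem27 did not match the gene table.

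Acinar and ductal genes, which belong to the exocrine pancreas, had unmarked peaks at 7 of 21 matched genes, and 9 of their 15 PDX1 peaks were unmarked (60.0%, 35.7 to 80.2). A sharp peak of 23.0 normalized tags (ratio 0.978) lay 34.1 kb from Pnlip, the pancreatic lipase gene. Peaks of 19.9 (0.929) and 14.8 (0.935) lay nearest to Hes1, a Notch target, and Cela2a, an elastase gene. Cftr, the ductal chloride channel, had 2 unmarked peaks of 10.2 normalized tags or fewer. The listed Ctrc is a transcribed pseudogene in the gene table and was not matched. The interval of this list contains the 59.2% of all genes.

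Large neural adhesion and synapse genes, with a median length of 1167230 bp, held many unmarked peaks. By nearest end, 29 of 36 had an unmarked peak, and 89 of their 120 PDX1 peaks were unmarked (74.2%, 65.7 to 81.2). Within their spans, which hold more peaks than their ends do, 835 of 1031 PDX1 peaks were unmarked (81.0%, 78.5 to 83.3), against 63.7% of the 15622 PDX1 peaks inside any protein-coding gene (63.0 to 64.5). Ptprd, a receptor phosphatase gene of synapses, held the most unmarked peaks of any gene, 68 of 81, followed by Sgcz, a sarcoglycan gene (51 of 58), Cntnap2, a neurexin-family gene (48 of 60), Robo2, an axon guidance receptor gene (42 of 55), and Csmd3 (40 of 43). Among hosts not on the list, Gpc5 held 37 of 42 and Erbb4, a receptor tyrosine kinase gene, 36 of 38. The highest unmarked peaks inside Ptprd, Sgcz, Robo2 and Cntnap2 had 48.5, 35.3, 31.2 and 21 normalized tags, and that inside Kcnip4, an ion channel partner gene, had 26.1. Within 50 kb of a gene end of the list the highest was 26.1 normalized tags, in Kcnip4 at chr5:48405736-48405970.

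Receptor families of the nose, known mainly from sensory neurons, gave the highest shares among lists with more than 10 PDX1 peaks. Olfr genes, the odorant receptors, had an unmarked PDX1 peak at 118 of 1110 genes (10.6%), below the 23.7% of all genes, but 129 of their 167 PDX1 peaks were unmarked (77.2%, 70.3 to 82.9). The strongest lay 2.60 kb from Olfr62 at chr4:118668947-118669181, with 82.8 normalized tags and a ratio of 0.982, and 46.9 kb from the nearest feature. Further sharp peaks of 50.1 (0.933) and 27.1 (0.965) lay nearest to the same gene, at chr4:118651871-118652105 and chr4:118647511-118647745. Olfr938 had a peak of 36.8 (0.961), and Olfr1176 a peak of 29.1 (0.983), 244 kb from any feature. The vomeronasal receptor genes Vmn1r had 13 unmarked of 16 PDX1 peaks (57.0 to 93.4) and Vmn2r 18 of 20 (69.9 to 97.2). They were led by Vmn1r4 (26.1) and Vmn2r115 (17.4). The Vmn1r interval contains the 59.2% of all genes. The Olfr, Vmn1r and Vmn2r intervals each overlap that of the large neural genes by nearest end (65.7 to 81.2). Counts were small for keratin genes, Krt, with 6 of 14.

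The peaks farthest from any feature were on the X chromosome. That at chrX:65293290-65293524, whose nearest gene end was that of Ctag2, lay 3291 kb from a feature interval and had 6.64 normalized tags at a ratio of 0.895. Another, chrX:64920018-64920252, lay 3084 kb away with 10.2 at 0.852. Both were listed at the lowest input value, and both were weak.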

How the data were processed

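The submitters' processing notes name Bowtie 1.1.1, the mm10 build and HOMER, whose version they do not state. Per the file headers, PDX1 peaks were called by findPeaks in the factor style at a fixed width and a minimum spacing of 470 bp; the thresholds were 13 tags, an FDR of 0.001, and a fold of 4 over input and over the local 10 kb. Of 56464 putative peaks, 17711 were removed against input and 3870 against the local signal, per the file headers. The local filter favours peaks over low surroundings, so the list is already selected on contrast.

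The authors deposited, per peak, a normalized tag count (signal, scaled to 10000000 tags), a focus ratio (fraction), a score (tags found by findPeaks), input tags, the ratio or fold over input and over the local region, and p-values, which were not used here. The deposited region size of the histone intervals, in bp, was not used beyond start and end. The normalized tag count and the score of a PDX1 peak come from the same tags. The headers list 1 pooled input for PDX1, H3K4me2 and H3K27ac and another for the remaining targets, although a sample label of H2A.Z names the first.

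Features overlapped where they shared at least 1 bp. Distal active peaks overlapped H3K4me2 and H3K27ac, and the other classes are named where they first appear. Gene positions came from a RefSeq table (GRCm38.p6) of gene spans without strand, so both ends of 21883 protein-coding genes were used. Shares carry Wilson 95% intervals and differences of shares Newcombe 95% intervals, both for counting error only. Peaks are not replicates, and no p-value was computed. Sequences and promoter windows are from RefSeq. Regions were named by a rule: the 15 unmarked peaks of highest normalized tag count, the highest 5 that overlap CLOCK alone or both clock factors, the highest 5 per gene list, and those at the limits. Some regions that the rule names are not reported here. Further hosts, windows and chains, and peaks farthest from a feature, were chosen after their values were seen. The classes, lists and rule were chosen with earlier results of these data known. Interval searches were tested on simulated peaks. The tools were matplotlib 3.10.9, SciPy 1.17.1, pandas 2.3.3, NumPy 2.4.6 and Python 3.11.15.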

Additional observations from a re-analysis of the deposited data

How the results depend on the processing

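Over 57 alternative values of the 5 main results, 35 stayed within the interval of the reported value. None of the differences changed sign. The unmarked share is a percentage and could not change sign, and 1 of its 11 alternatives stayed within the interval. The unmarked share, 68.4% as reported, ranged from 56.5% to 80.2%. It was 64.9% with no feature within 500 bp, 59.7% with none within 2 kb, 70.2% by the peak centre, 69.3% with H3K4me2 and H3K27ac only, and 80.2% with the upper 50% of each feature list. It was 64.7% beyond 5 kb from a gene end and 67% with the ends of every gene. It was 56.5% in the upper 50% of PDX1 peaks, 70.9% in those at least 8 times the input and 75.6% in those with 0 or 1 input tags. The CLOCK difference, -2.51 points, became -3.27 with the upper 50% of each feature list and -1.45 with 0 or 1 input tags, and the BMAL1 difference stayed between -1.37 and -0.894.

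The neighbour difference, -7.50 points, became -9.18 with no feature within 2 kb, -5.42 with the upper 50% of each feature list, -11.5 in the upper 50% of PDX1 peaks, -4.91 at 8 times the input, -3.14 within 50 kb, and -0.343 with 0 or 1 input tags. Settings that kept only part of the PDX1 peaks had fewer peaks to serve as neighbours. These were the upper 50%, 8 times the input, and 0 or 1 input tags. Only the last was repeated with neighbours from the whole list, an alternative chosen after seeing the data, and the value was -8.56. The difference in median distance, 58.3 kb, became 62.4 kb with no feature within 2 kb, 52.3 kb with the upper 50% of each feature list, 52.2 kb in the upper 50% of PDX1 peaks and 13.1 kb with the ends of every gene. The causes of these shifts were not tested. Each target had 1 library, so the spread between libraries is unknown, and an unmarked site is one where no interval passed the threshold at the depth of its list.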
